A study of Phalaenopsis x intermedia with 4 samples.

Results

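Chromosome 6 was examined in an F1 population of Phalaenopsis orchids through 7257 SNPs. They were taken from the deposited genotype table as the entries on chromosome 6 with exactly 2 base alleles and a missing call (N) in over 20% of the 92 plant columns. These were 98.3% of the 7383 SNPs with 2 base alleles on the chromosome, of 113517 such SNPs on chromosomes 1 to 19. The members nearest to the limit were 11 SNPs with N in 19 columns, and just outside it lay 4 SNPs with N in 18 columns. The 126 widely called SNPs of the chromosome and 104 entries with an insertion, a deletion or further alleles were not members.

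The plants were F1 progeny (PaPe columns) of a cross between P. aphrodite (Pa) and P. equestris (Pe), the natural hybrid P. Intermedia, with 1 column for each parent. Leaf DNA was cut with ApeK1 or Hinp1I, each paired with HaeIII, and each pair filled 2 plates, so that 4 multiplexed libraries of short reads were merged into 1 table. This method, genotyping by sequencing, reads only the ends of restriction fragments. The table does not say which library gave a call, and read depth was not in it. The cross was 1 family, so all values describe its plants as called in the table and not the species.

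Of the 90 progeny, 60 had N at no more than 50% of entries and were used. They lacked 0.331% to 43.7% of the calls at the members, with a median of 1.62%. The other 30 progeny lacked 73.1% to 99.97%, with a median of 99.6%, and no value below rests on them unless stated. Pa lacked 4.45% and Pe lacked 1.02% of the calls. Among the 60 plants, PaPe6, PaPe52, PaPe63, PaPe76 and PaPe89 stood apart. Their mean difference in allele dosage from the other plants was 0.737 to 0.834 alleles per SNP over all members of the 19 chromosomes, against at most 0.724 in the remaining 55 plants. They were also heterozygous at only 15.6% to 18.7% of calls on chromosome 6, and at 14.3% to 19.5% on the other chromosomes. At least 1 plant of each of the 2 near-identical pairs among the progeny was in this group. Results that rest on correlation between SNPs are given with and without them where they differed.

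In the progeny of a cross between outbred parents, each plant receives 1 recombined chromosome from each parent. SNPs that are close together are then inherited together and their genotypes correlate across plants, which is called linkage disequilibrium (LD). Crossovers break this correlation over distance, and crossovers are often rare around centromeres. In a correctly ordered chromosome LD falls with distance, and loci on different chromosomes are inherited independently. An allele carried by only 1 parent in 1 copy is passed to an expected equal share of the progeny, and SNPs segregating from different parents are not correlated even when they are neighbours.

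The members spanned 105147 to 55845736 bp, as numbered in the deposited table, at a mean density of 130 SNPs per Mb. The paper lists a shorter length for this chromosome, so part of these positions lies beyond it. Its scaffold group of the same number is long enough to hold them. The reason for the difference was not tested. By last member position, the density was the fifth highest of the 19 chromosomes, and the other chromosomes had 45.7 to 188 SNPs per Mb under the same rule. The SNPs came in clusters. The median distance to the next SNP was 30 bp, and 61.3% of SNPs lay within 64 bp of the next one. The 7257 SNPs occupied 1637 stretches of 5 kb, with a mean of 4.43 SNPs in each. The longest stretch without a member was 499451 bp, from 17461617 to 17961068 bp.

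Density varied along the chromosome in 28 windows of 2 Mb, and it had a dense stretch in its second part, a sparse middle and sparse ends. The window at 48 to 50 Mb held the most SNPs (489), and that at 54 to 56 Mb, which is not filled to its end, held the fewest (67). All 8 windows between 34 and 50 Mb had 374 to 489 SNPs. The 9 windows between 12 and 30 Mb had 76 to 194. A smaller peak of 389 SNPs stood at 8 to 10 Mb. The number of SNPs per occupied 5 kb stretch was less variable, at 3.26 to 5.58, and the number of occupied stretches ran between 14 at 54 to 56 Mb and 114 at 36 to 38 Mb. The windows thus differed more in how many stretches had SNPs than in SNPs per stretch. The bars of SNP number by window show both peaks with the sparse middle between them.

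**Figure D1:**
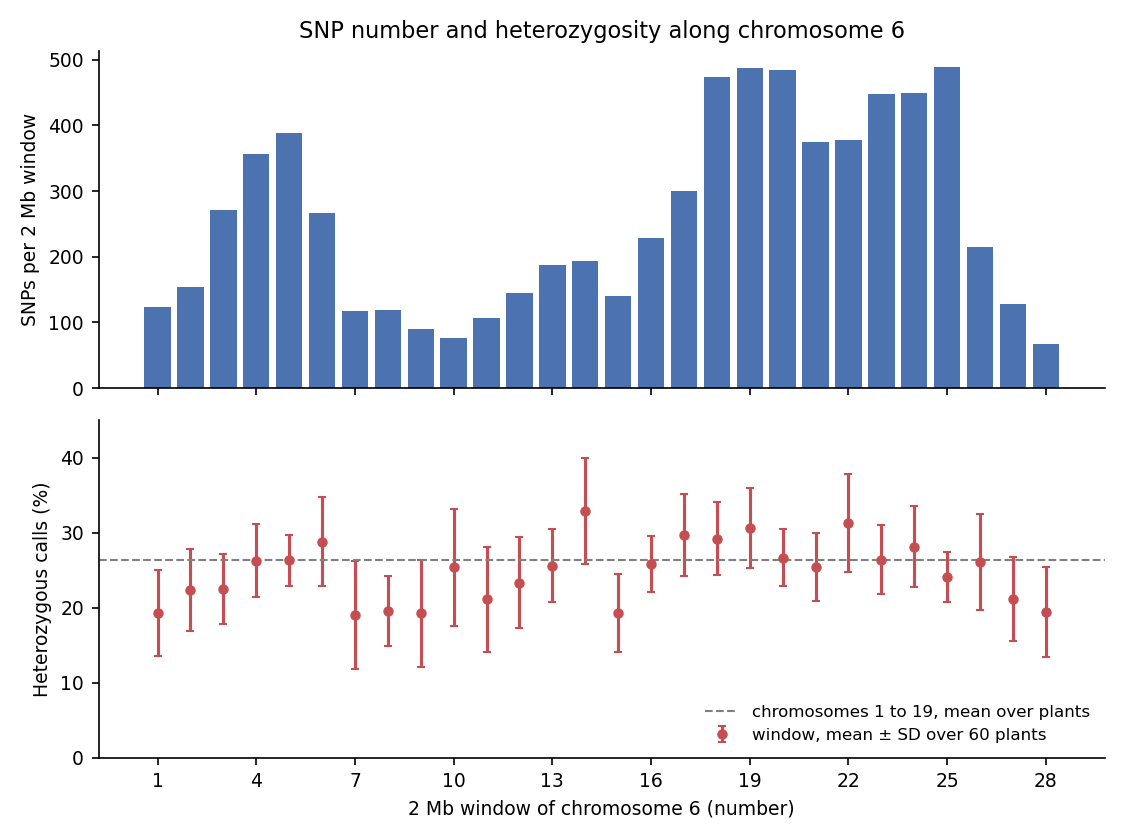
Top, number of SNPs in each of the 28 windows of 2 Mb of chromosome 6. Bottom, heterozygous calls in percent, as the mean and SD over 60 plants, with the mean over chromosomes 1 to 19 as a dashed line. Window 25 (48 to 50 Mb) held the most SNPs (489) and window 14 (26 to 28 Mb) had the highest heterozygosity (32.9%).

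Heterozygosity of the whole chromosome did not stand apart. Per plant, the share of heterozygous calls on chromosome 6 had a lowest value of 15.6%, a median of 26.8% and a highest value of 32.1%. On the other chromosomes the same plants had 14.3%, 27.1% and 32.3%. The mean was 26.3% ± 3.81 on chromosome 6 and 26.4% ± 3.94 on the other chromosomes (SD over plants), a difference of -0.057 percentage points (SE 0.089). Chromosome 6 was the higher in 28 of 60 plants (permutation test with sign flips, two-sided, p = 0.53). Chromosome 6 ranked 8 of 19 by mean heterozygosity. The sign of this difference depended on which SNPs were counted. With 1 SNP per 5 kb it was 0.36 percentage points (same permutation test, p = 0.00135), and with SNPs missing in at most 5% of the plants it was 0.25 (p = 0.014).

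Within the chromosome the windows differed clearly. Each window's share was compared with the same plant's share over all 19 chromosomes, and p-values were adjusted over all 450 windows with at least 20 SNPs. On chromosome 6, 20 of 28 windows (71.4%) passed an adjusted p of 0.05, 13 lower and 7 higher. Off chromosome 6, 85.3% of windows passed, 49.8% lower and 35.5% higher, so windows that differ were common in this table and chromosome 6 did not hold more of them.

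The window at 26 to 28 Mb had the highest heterozygosity, at 32.9% ± 7.05 (SD, n = 60). Its lowest plant was at 6.38%, its median at 33.5% and its highest at 45.4%, and 56 of 60 plants were above their own mean over chromosomes (difference 6.56 percentage points, permutation test, adjusted p = 1.72e-05). With 1 SNP per 5 kb the highest window was instead that at 32 to 34 Mb with 29.5%. Over all members, the window at 42 to 44 Mb followed with 31.3% ± 6.54, higher in 55 of 60 plants. Directly beside the highest window, at 28 to 30 Mb, heterozygosity was 19.3% ± 5.15, and 3 of 60 plants were above their own mean. The lowest window was that at 12 to 14 Mb with 19.1% ± 7.19, where plants ran between 3.53% and 37.4%. It differed little from the windows at 14 to 16 Mb (19.5%), 16 to 18 Mb (19.3%), 28 to 30 Mb, 0 to 2 Mb (19.3%) and 54 to 56 Mb (19.4%), whose means lay well within 1 SD of each other. Each of these 6 windows held at most 140 SNPs. The plot of heterozygosity by window shows the same low values at both ends of the chromosome.

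Some SNPs were heterozygous in nearly all plants. At 452 members (6.23%) at least 80% of the plants were heterozygous, and 89.8% of these 452 SNPs were called heterozygous in both parents. Off chromosome 6 the shares were 6.23% and 87.8%. The window at 26 to 28 Mb held 22 such SNPs among 194, and that at 28 to 30 Mb none among 140. At the other extreme, 677 members (9.33%) had no heterozygous plant, against 9.89% of members elsewhere. The median SNP was heterozygous in 20% of plants in both places.

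The parents' own calls predicted the progeny poorly at many members. Pa was heterozygous at 22.3% and Pe at 26.6% of its calls on chromosome 6, against 23.2% and 27.4% on the other chromosomes. The parents were called as different homozygotes at 1729 members (23.8%), as against 18% of members on the other chromosomes. Progeny of such a pair are heterozygous by Mendel's rules. Here 10.5% of progeny calls were heterozygous, 42.9% were the homozygote of Pa and 46.6% the homozygote of Pe. On the other chromosomes these shares were 11.1%, 42.6% and 46.3%. At another 2614 members (36%) both parents were called as the same homozygote, from which no segregation follows, and yet 17% of progeny calls were heterozygous and 27.6% were the opposite homozygote. Where both parents were called heterozygous (835 members), 69.9% of progeny calls were heterozygous.

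Over the 6887 members with both parents called, 56.9% ± 4.72 of a plant's calls were possible from the parents' calls (SD, n = 60), with a lowest plant of 47.2%, a median of 57.1% and a highest plant of 68.5%. On all other chromosomes together the values were 60.1% ± 1.70, with 56.1%, 60% and 63.2%. Single chromosomes spread from 54.0% on chromosome 12 to 68.3% on chromosome 13, and chromosome 6 ranked 17 of 19. How far missing heterozygotes, imputation or exchanged plant names entered these calls was not tested.

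Segregation ratios were tested where at least 1 parent was called heterozygous. For SNPs with 1 heterozygous parent, heterozygous progeny were set against the homozygote shared with the other parent. For SNPs heterozygous in both parents, they were set against both homozygotes together. All ratios are 1:1 by expectation. The exact two-sided binomial test was adjusted over all such SNPs of the 19 chromosomes, and SNPs of 1 fragment share the same plants and are not independent.

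Among members heterozygous only in Pa, 302 of 686 departed from 1:1 at an adjusted p of 0.05 (44.0%), beside a background of 49.5% on the other chromosomes. Among those heterozygous only in Pe, 408 of 984 departed (41.5%), beside 51.0%. Heterozygotes were in deficit at 234 of the 302 and at 303 of the 408. On the other chromosomes the deficit was at 3035 of 4028 and at 3673 of 5993. Where both parents were heterozygous, 600 of 835 departed (71.9%), beside 63.6%, and heterozygotes were in excess at 515 of the 600. Elsewhere this excess was at 6644 of 8453 departures. At SNPs with 1 heterozygous parent another class also appeared. The homozygote that the parents' calls do not allow made up 14.8% of progeny calls for Pa and 16.9% for Pe, against 16.9% and 19.1% on the other chromosomes. Over all 3 kinds, 1310 of 2505 tested members departed (52.3%), close to the 55.7% of the other chromosomes. The differences between chromosome 6 and the other chromosomes in these shares were not tested.

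By window, the share of departures was highest at 10 to 12 Mb, where 60 of 75 tested SNPs departed (80%), 36 of them with too few and 24 with too many heterozygotes. The neighbours at 8 to 10 Mb (69.7%) and 12 to 14 Mb (70.4%) were also high. These shares depend on the mix of SNP classes, since SNPs heterozygous in both parents departed most often on the chromosome (71.9%). Such SNPs were 42 of the 75 at 10 to 12 Mb (38 departed) and 70 of 109 at 8 to 10 Mb (50 departed). At 12 to 14 Mb they were only 4 of 27. Among the rest at 10 to 12 Mb, 21 of 30 heterozygous only in Pe and 1 of 3 only in Pa departed. The lowest share was 40% at 18 to 20 Mb, from 8 of 20 SNPs. At 26 to 28 Mb the departures ran mostly to excess, with 33 of 39 SNPs having too many heterozygotes. Of these 39 SNPs 27 were heterozygous in both parents, a class with excess at 515 of its 600 departures on the whole chromosome.

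The 5 members with the smallest p showed nearly complete absence of 1 class. At S6_13544441, heterozygous only in Pa, no plant was heterozygous, 55 had the shared homozygote and 3 the other homozygote (adjusted p = 4.47e-14 by the exact binomial test). At S6_13116069, heterozygous only in Pe, 1 plant was heterozygous, 56 had the shared homozygote and 3 the other. S6_30636502 had 1 heterozygous plant, 55 with the shared homozygote and 3 with the other, and S6_40640354 had 0, 50 and 10. The fifth, S6_16034623, was heterozygous in both parents and in 58 of 60 progeny, and only 2 progeny were homozygous. The first 4 of these SNPs had the parent's heterozygous call almost nowhere in the progeny.

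LD was measured as r2, the squared correlation of allele dosage between SNPs across the 60 plants, at 1 SNP per 5 kb. This left 1632 SNPs on chromosome 6 and 24640 in all. Correlations between SNPs are given as descriptions, without a test, since the points share plants. Mean r2 fell slowly with distance. It was 0.183 below 5 kb (232 pairs), 0.177 at 5 to 50 kb, 0.140 at 0.5 to 1 Mb, 0.112 at 1 to 2 Mb, 0.073 at 2 to 5 Mb and 0.042 at 5 to 10 Mb. Beyond 20 Mb it stayed at 0.038, against 0.050 ± 0.026 (SD) over the 15 other chromosomes with such pairs. Both means lay above 0.026, the mean of window means for windows on different chromosomes.

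The decline on chromosome 6 was like that of the other chromosomes. At 5 to 50 kb, 0.177 on chromosome 6 stood against a mean of 0.177 ± 0.013 over 18 other chromosomes (SD), and at 5 to 10 Mb 0.042 stood against 0.057 ± 0.020. Chromosome 6 stayed inside the range of the other chromosomes in every class, ranking between 6 and 16 of 19 up to 20 Mb. Without the 5 outlying plants the values were higher, at 0.221 for 5 to 50 kb and 0.174 for 0.5 to 1 Mb. The plot of mean r2 by distance shows chromosome 6 inside the bars of the others throughout.

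**Figure D2:**
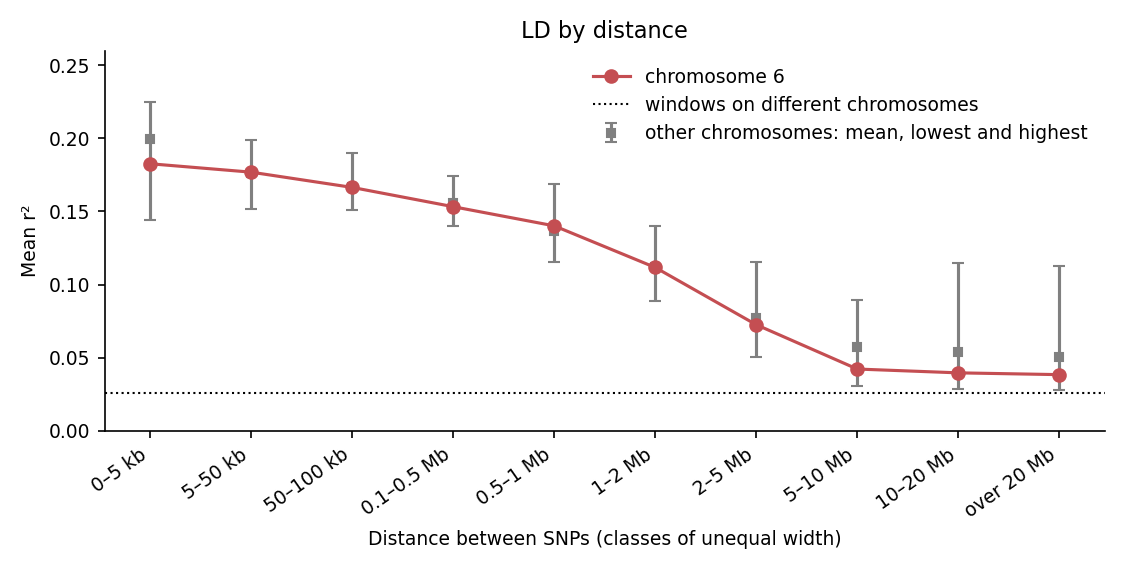
Mean r2 between SNPs by distance class, for chromosome 6 (line) and for the other chromosomes (squares for the mean, bars for the lowest and highest chromosome). The dotted line is the mean over windows on different chromosomes (0.026). Chromosome 6 fell to 0.042 at 5 to 10 Mb and lay inside the bars in every class.

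Most pairs of neighbouring SNPs had a low r2 and a smaller share a high one. At 5 to 50 kb the median r2 was only 0.036, while 15.5% of pairs reached 0.5. In each window the SNP with most partners at an r2 of at least 0.5 defined a largest set, and the procedure was repeated on SNPs with an r2 under 0.2 to it. A second set of at least 3 SNPs was found in 21 of 28 windows. The r2 between the calls of both sets had a median of 0.006 and a highest value of 0.039. The limits chose the sets, so this low r2 is partly by construction.

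The largest sets took 14.3% to 60% of a window's SNPs, with a median of 33.2%. Windows without a second set were those at 12 to 14, 16 to 18, 18 to 20, 20 to 22, 22 to 24, 52 to 54 and 54 to 56 Mb. These are SNP-poor windows, with 14 to 28 SNPs for LD, so a small second set was harder to find there. Both kinds of set held SNPs of every class of parents' calls. In the largest sets (522 SNPs), 7.85% of SNPs were heterozygous only in Pa and 7.66% only in Pe, and in the second sets (244 SNPs) 16.4% and 21.7%. Parents called as different homozygotes made up 33.7% of the largest and 39.3% of the second sets. Parents called as the same homozygote made up 43.7% and 19.7%. Neither of these classes allows segregation in the progeny, and together they were the majority in both kinds of set. The mean share of heterozygous calls was 15.8% in the largest and 24.0% in the second sets, against 29.3% in neither set. The 866 SNPs in neither set were more often heterozygous in both parents (18.1%, against 6.70% and 2.87%).

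Window means of r2 cut the chromosome into 3 blocks. A block was a run of adjacent windows with a mean r2 above 0.037, the 95th percentile of window pairs on different chromosomes. Of 27 adjacent pairs 25 were above it (372 of 388, or 95.9%, on the other chromosomes). The breaks lay at 12 Mb, where the mean r2 between the windows on either side was 0.027, and at 34 Mb, where it was 0.035. The blocks were thus 0 to 12 Mb, 12 to 34 Mb and 34 to 56 Mb. The first break was present under every alternative for blocks except the window shift, which moved it to 13 Mb. The second was close to the limit, and without the outlying plants or with a minor allele frequency of at least 0.1 the whole of 12 to 56 Mb was 1 block. It was also lost with windows shifted by 1 Mb and with windows of 1 Mb, both of which had a break at 51 Mb instead.

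The window of highest mean r2 was often not a neighbour, on chromosome 6 and elsewhere alike. For 11 of 28 windows it lay on chromosome 6 but was not adjacent. This share was close to that of the other chromosomes, where 152 of 411 windows (37.0%) had such a partner. On chromosome 6 these windows pointed mostly to 1 place. The window at 16 to 18 Mb was the best partner of the windows at 12 to 14, 14 to 16, 18 to 20, 20 to 22, 22 to 24, 24 to 26, 26 to 28, 28 to 30, 52 to 54 and 54 to 56 Mb. It had the highest mean r2 within itself (0.360), and its own best partner was the window at 54 to 56 Mb, near the other end, with 0.284. The lowest mean r2 within a window was 0.089, at 12 to 14 Mb.

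The link between the middle and the far end was seen in single SNPs. S6_16509967 (G/C) and S6_54639626 (C/T) were called in 56 plants in common. In 30 plants the first was homozygous G and the second homozygous C, and in 26 plants the first was homozygous C and the second homozygous T, without exception. Both alleles were common, so the r2 of 1 did not rest on a few plants. No plant was heterozygous at either SNP, although by Mendel's rules heterozygotes accompany both homozygotes in such a cross. Why they were absent was not tested. Of the 280 SNP pairs between these windows 29.3% had an r2 of at least 0.5, and without the outlying plants the mean r2 of the windows was 0.357.

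The near end belonged to the same group. The windows at 0 to 2 and 2 to 4 Mb both had a mean r2 of 0.139 with the window at 52 to 54 Mb, as high as their mean r2 with each other (0.139). With the outlying plants kept, the pair of highest r2 between 2 to 4 and 52 to 54 Mb was S6_2991099 and S6_53659753, with 0.864 over 57 plants. In the 55 other plants it was S6_2324244 and S6_53163910, with an r2 of 1. There S6_2324244 was homozygous in 28 plants in which S6_53163910 was heterozygous, and heterozygous in 27 plants in which S6_53163910 was homozygous. The positions are those of the deposited table. Whether they reflect the order on the chromosome was not tested.

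Between regions, LD was uneven in the same way. Divided after the values had been seen, the windows at 0 to 6, 12 to 34 and 52 to 56 Mb were above the limit of 0.037 with each other in every pair (33 of 33, 6 of 6 and 22 of 22). The median r2 was 0.078 between 0 to 6 and 12 to 34 Mb, 0.124 between 0 to 6 and 52 to 56 Mb, and 0.122 between 12 to 34 and 52 to 56 Mb. The region at 34 to 52 Mb had lower values with them, with medians of 0.027, 0.030 and 0.030, near the level of different chromosomes. Its windows differed. The window at 42 to 44 Mb was above the limit with all 11 windows of 12 to 34 Mb, all 3 of 0 to 6 Mb and both of 52 to 56 Mb, and its best partner was the window at 30 to 32 Mb with 0.095. The window at 50 to 52 Mb was also above it with all of these, at 0.046 to 0.070 with 12 to 34 Mb. That at 44 to 46 Mb was above it with 7 of the 11. The other 6 windows were above it with at most 2 of the 11 and with no window of 0 to 6 or 52 to 56 Mb. The windows at 6 to 12 Mb had medians of 0.029 to 0.048 with all other regions of the chromosome.

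**Figure D3:**
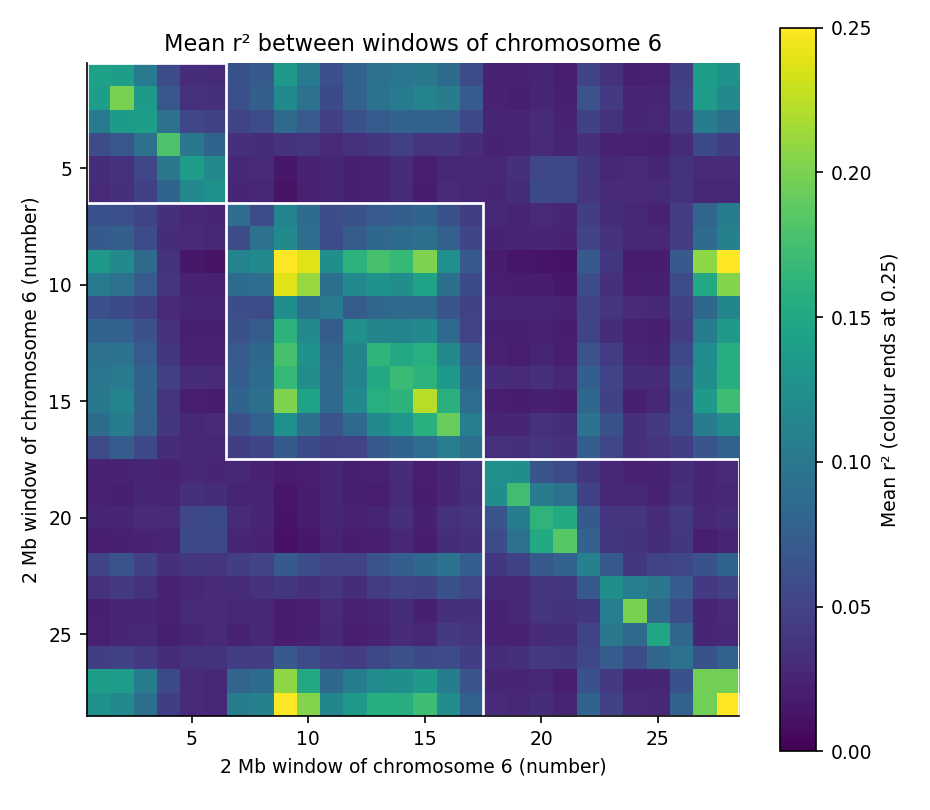
Mean r2 between all pairs of the 28 windows of chromosome 6, with the 3 blocks framed in white (both axes, window number). Window 9 (16 to 18 Mb) was bright with windows 27 and 28 at the far end (0.207 and 0.284), while the median r2 between 34 to 52 Mb and 12 to 34 Mb was 0.030.

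Some regions of chromosome 6 were as closely linked to other chromosomes as to their own neighbours. The window at 6 to 8 Mb was the only 1 of 28 whose highest mean r2 was with a window on another chromosome. On the other chromosomes 5.11% of windows had such a partner. Its partner was the window at 6 to 8 Mb of chromosome 9 with a mean r2 of 0.111, ahead of the next window of chromosome 6 at 8 to 10 Mb with 0.1. The reverse held too, since the window of chromosome 9 had its highest value with chromosome 6, and its best value on chromosome 9 was 0.095. This partner was the first choice under every alternative with unshifted 2 Mb windows that gave a value, with mean r2 of 0.107 to 0.130. With windows shifted by 1 Mb no window had its highest value on chromosome 9, and the only partner elsewhere was on chromosome 12, for 9 to 11 Mb.

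S6_7937336 (C/T) and S9_7090482 (A/T) had the highest r2 of this window pair, 0.929 over 58 plants. In 32 plants the first was homozygous C and the second homozygous T, in 23 plants the first was homozygous T and the second homozygous A, 2 plants were heterozygous at both, and 1 plant was homozygous C and homozygous A. Only 1 of 58 plants thus broke the association, and heterozygotes were again nearly absent. Without the outlying plants the r2 was 0.928. Of the 4644 SNP pairs between both windows, 8.27% had an r2 of at least 0.5.

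The windows at 8 to 10 and 10 to 12 Mb were linked to the end of chromosome 12. Their mean r2 with the window at 32 to 34 Mb of chromosome 12 was 0.117 and 0.116, beside 0.117 with each other. Without the outlying plants the values were 0.136 and 0.136, above the 0.135 with each other, so which partner came first depended on very small differences in these windows. With other windows the differences were larger. Windows shifted by 1 Mb gave 9 to 11 Mb a mean r2 of 0.138 with 33 to 35 Mb of chromosome 12, beside 0.086 with its best window on chromosome 6, and windows of 1 Mb gave 9 to 10 Mb 0.156 beside 0.130. These windows were singled out after their values had been seen. The pairs of highest r2 there (S6_8198179 and S6_10791867, each with S12_32018149) were heterozygous in 56 of 60 plants at both SNPs, and their r2 of 1 rested on 4 plants. All 55 plants other than the outlying ones were heterozygous, which leaves no r2.

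The association nevertheless did not need those plants. In the 55 plants, S6_8331262 and S12_32515349 had an r2 of 0.924. The first was homozygous A and the second homozygous A in 35 plants, the first was homozygous G and the second heterozygous in 19 plants, and 1 plant was homozygous G and homozygous A. For S6_10110794 and the same SNP of chromosome 12 the r2 was also 0.924. There 35 plants were heterozygous on chromosome 6 and homozygous A on chromosome 12, 19 were homozygous T and heterozygous, and 1 was homozygous T and homozygous A. Of 7043 SNP pairs between 8 to 10 Mb and the window of chromosome 12, 9.83% had an r2 of at least 0.5 in these plants.

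In bins of 500 kb, an addition made after the windows had been seen, each link covered a stretch of chromosome 6. With 6 to 8 Mb of chromosome 9, the 6 bins between 6 and 9 Mb had mean r2 of 0.095 to 0.141, against a median of 0.025 in the 43 bins between 12 and 38 Mb. The value was 0.056 in the bin at 9 to 9.5 Mb, but 0.076 at 11 to 11.5 Mb and 0.103 at 11.5 to 12 Mb, the last above that bin's 0.088 with chromosome 12. With 32 to 36 Mb of chromosome 12, the 6 bins between 9 and 12 Mb had 0.088 to 0.152, and the bin at 9 to 9.5 Mb was the highest. At 12 to 12.5 Mb both links were down to 0.029 and 0.038. Another part of chromosome 9 had a link there. Windows of 1 Mb gave 12 to 13 Mb a mean r2 of 0.097 with 32 to 33 Mb of chromosome 9. Its best window on chromosome 6 had 0.053. In windows of 2 Mb, 12 to 14 Mb had 0.058 with 32 to 34 Mb of chromosome 9, below 0.113 with its best window on chromosome 6. The median r2 between the bins of 9 to 12 Mb and SNPs of chromosome 6 within 2 Mb of them was 0.103, lower than their median of 0.114 with chromosome 12.

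A second and weaker stretch was linked to chromosome 12 as well. The 9 bins (bins 77 to 85) that start at 38 Mb had mean r2 of 0.057 to 0.091 with 32 to 36 Mb of chromosome 12, with local values of 0.146 (median) on chromosome 6. Their values with chromosome 9 were 0.025 to 0.035. The windows at 38 to 40 and 40 to 42 Mb also had a mean r2 of 0.153 with each other, so here the own chromosome came first. The best pair in the 55 plants, S6_40892255 and S12_32308697, had an r2 of 0.686. Of the SNP pairs between 40 to 42 Mb and 32 to 34 Mb of chromosome 12 only 0.861% reached 0.5.

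**Figure D4:**
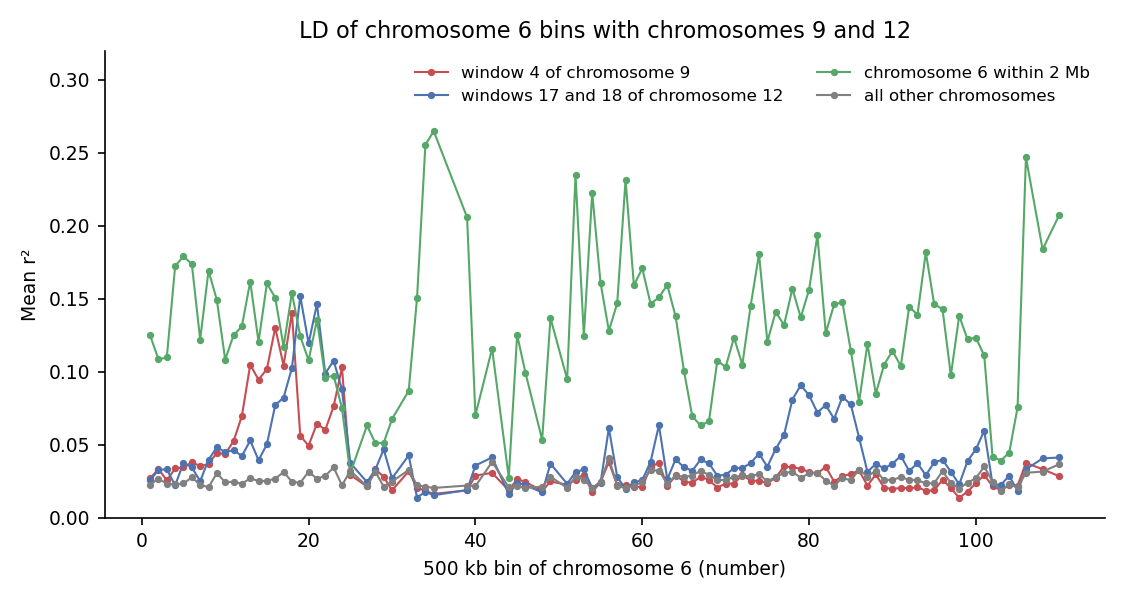
Mean r2 of bins of 500 kb along chromosome 6 (bin number) with window 4 of chromosome 9, with windows 17 and 18 of chromosome 12, with chromosome 6 within 2 Mb, and with all other chromosomes. Bins 13 to 18 (6 to 9 Mb) had high values with chromosome 9 and bins 19 to 24 (9 to 12 Mb) with chromosome 12, and the weaker stretch with chromosome 12 was at bins 77 to 85.

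Single SNPs gave a similar picture. Of the 1632 SNPs, 1083 (66.4%) had their best partner beyond 50 kb on chromosome 6 and 549 (33.6%) on another chromosome. On the other chromosomes the share elsewhere was 33.7%, and chromosome 6 ranked 6 of 19 by the share on its own chromosome. By window, partners on chromosome 6 were most frequent at 46 to 48 Mb (82.3%) and least frequent at 20 to 22 Mb (38.1%). Of the 549 partners elsewhere, 9.11% were on chromosome 12, which held 3.38% of the SNPs off chromosome 6, and 6.01% were on chromosome 9, which held 3.56%. Chromosome 1, with most SNPs, had 19.5% of the partners and 23.1% of the SNPs. The best partner is chosen as a maximum, so no test is given. At 43 of the 549 SNPs the partner elsewhere had an r2 of at least 0.9.

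Recombination was followed from window to window as the share of plants whose call changed. In each window, SNPs heterozygous in 1 parent were reduced to their largest set in LD, and each plant was called for the allele group it carried. The smaller of both possible phases was counted, so that 50% is the upper end and shares without association lie at or below it. Intervals of 95% (Wilson) cover the sampling of plants only, since calling errors also count as changes.

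With SNPs heterozygous only in Pa, 15 pairs of adjacent windows could be compared. In 8 pairs 0% to 3.57% of plants changed, and in the other 7 pairs 35.6% to 48.3%. With SNPs heterozygous only in Pe, 5 of 14 pairs were at 1.67% to 6.90% and 9 at 35% to 50%. No pair lay between 10% and 25%. Pa and Pe gave close values at some boundaries, as at 32 to 34 against 34 to 36 Mb, where 29 of 60 plants changed in both (48.3%, interval 36.2% to 60.7%). At others they did not, as at 38 to 40 against 40 to 42 Mb, with 1.85% for Pa and 45.5% for Pe. A high value can mean that the largest sets of both windows were different, mutually uncorrelated sets, and so these shares are not map distances. Between 6 and 24 Mb no pair of windows could be compared in this way.

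The alternative of following the sets of SNPs in LD whatever the parents' calls was added after these values had been seen. Most SNPs of these sets, like most members of the chromosome, had parents' calls that allow no segregation in the progeny. Both sets of a window were matched with the sets of the next window, taking the best match first. This choice lowers the values. All 27 boundaries then gave a value. The best match had a median of 3.64% of plants changed, with 19 of 27 boundaries at or below 10% and 4 above 25%. The remaining sets could be compared at 18 boundaries, with a median of 8.99%.

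Few plants changed across the SNP-poor middle, but values as low were common elsewhere, with a median of 3.64% over all 27 boundaries. At the 9 boundaries between the windows at 12 to 14 and 30 to 32 Mb the best match had 0 to 4 changed plants of 56 to 59. At 18 to 20 against 20 to 22 Mb, for example, 0 of 58 plants changed (0%, interval 0% to 6.21%), from sets of only 7 and 4 SNPs. The remaining sets of the middle changed in 2 of 58 plants at 26 Mb, 3 of 59 at 28 Mb and 7 of 60 (11.7%) at 30 Mb. Outside the middle 0 changes were found at 38 to 40 against 40 to 42 Mb and at 40 to 42 against 42 to 44 Mb, of 52 and 53 plants. At the second of these the remaining sets changed in 26 of 55 plants (47.3%), the highest value of all set comparisons, and SNPs heterozygous only in Pa (39.3%) or only in Pe (37.3%) were also high there. Between 4 and 10 Mb changes were more frequent, with 6 of 55 plants (10.9%) and 11 of 56 plants (19.6%) at the boundaries at 6 and 8 Mb.

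At 4 boundaries no sets matched closely. At 12 Mb, 23 of 54 plants changed (42.6%, interval 30.3% to 55.8%). At 34 Mb 20 of 55 plants (36.4%) changed in the best match and 25 of 56 plants (44.6%) in the remaining sets. At 44 Mb 16 of 56 plants (28.6%) and 18 of 55 plants (32.7%) changed, and at 52 Mb 26 of 58 plants (44.8%, interval 32.7% to 57.5%). The boundaries at 12 and 34 Mb are those where the LD blocks ended. The boundary at 52 Mb had a mean r2 of 0.063, above the limit for blocks. The window before it, at 50 to 52 Mb, was mixed, since its bin at 50 to 50.5 Mb had a mean r2 of 0.021 with 16 to 20 Mb and the bins at 50.5 to 51 and 51 to 51.5 Mb had 0.177 and 0.180. The intervals at 12 and 52 Mb reached above 50%, and those of the best match at 34 and 44 Mb reached 49.6% and 41.5%. The smaller phase and the best match were counted, so shares without association lie below 50%. The intervals therefore cannot decide whether association was absent at these boundaries.

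**Figure D5:**
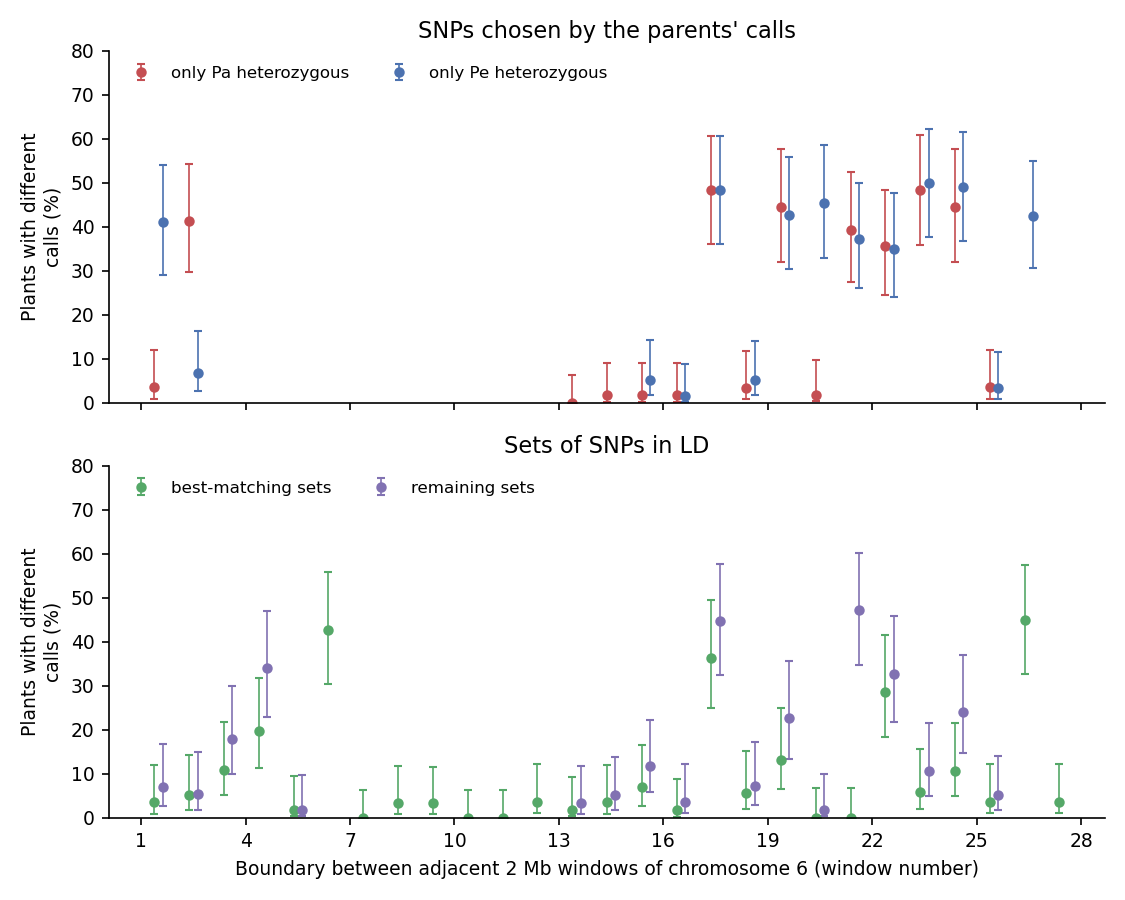
Share of plants whose call changed between adjacent 2 Mb windows of chromosome 6, with Wilson 95% intervals, by boundary. Top, SNPs heterozygous only in Pa or only in Pe; bottom, sets of SNPs in LD, as the best-matching and the remaining sets. Top values were at most 6.90% or at least 35%, and in the bottom panel the best match was above 25% at 4 boundaries (12, 34, 44 and 52 Mb).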

How the data were processed

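The authors cut leaf DNA with Hinp1I or ApeK1 plus HaeIII, sequenced 4 libraries, mapped reads with Bowtie 2 and called SNPs with TASSEL-GBS. No source used here names the genome build. The deposited values are genotype letters (a base, a heterozygote code or N), an other unit than a count, with no scale. Per the file headers and the authors' name for the table, it had been imputed from nearest neighbours and filtered at a minor allele frequency of 0.05. Which calls were imputed is unknown, and read depth is unknown, so no interval from depth is given. An imputed call copies similar plants, which can raise r2.

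Heterozygotes were dosage 1 and N was left out of each pair. For LD, 1 SNP per 5 kb (fewest N), a minor allele frequency of at least 0.05, at least 20 plants in common and at least 10 SNPs per window were required. Heterozygosity was tested with 100000 sign flips over plants, of which the smallest p is 1e-05, and segregation with exact binomial tests on at least 20 plants. Both were adjusted by Benjamini-Hochberg over the whole table. Plants are single columns, so p-values from sign flips measure the spread between plants of 1 cross. Binomial p-values compare counts of these plants with 1:1. Gene annotation was not used here.

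Windows were named at the extremes of SNP number, heterozygosity, segregation and mean r2, at block ends and where the best window lay on another chromosome. SNPs were named as the best pair there and as the 5 with the lowest segregation p. Members and rules were chosen with earlier results of these data known, and further windows and SNP pairs were named after their values were seen. Alternatives concerned plants, missing calls, rare alleles, heterozygous calls, density, windows and the summary. Python 3.11.15 with numpy, scipy and pandas was used, and the steps were tested on simulated data.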

Additional observations from a re-analysis of the deposited data

How the results depend on the processing

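No paired analysis was possible because the plate numbers in the labels belong to libraries that were merged into 1 table, and no groups of libraries were compared. Heterozygosity was compared within plants.

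With widely called SNPs alone, chromosome 6 heterozygosity was 4.36 percentage points higher than elsewhere, with 1 SNP per 5 kb 0.36 and with N in at most 5% of plants 0.25, against -0.057 reported. The widely called SNPs also gave 1 differing window of 2, 10 departures of 14 SNPs heterozygous only in Pa and 20 of 33 only in Pe, mean r2 of 0.478 at 5 to 50 kb and 0.041 at 0.5 to 1 Mb, and 85.0% of 40 SNPs with a best partner elsewhere. They were too few for blocks, window partners, recombination and SNPs heterozygous in both parents. With 1 SNP per 5 kb, 68, 78 and 147 SNPs departed from 1:1 (heterozygous in Pa, Pe and both), from fewer SNPs tested.

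Median r2 was 0.036, 0.030 and 0.013 at 5 to 50 kb, 0.5 to 1 Mb and 5 to 10 Mb. Mean r2 at the first 2 distances was 0.221 and 0.174 without the outlying plants and 0.213 and 0.158 with heterozygous calls as missing, and 0.193 at 5 to 50 kb with N in at most 5% of plants. Windows of 1 Mb gave 47 differing windows of 55, 5 blocks and 5 windows of 52 with a partner elsewhere. The reported 1 window with a partner elsewhere became 2 with all 90 progeny or 1 SNP per 20 kb, and 3 without the outlying plants or with a minor allele frequency of at least 0.1. With heterozygous calls as missing, 40.4% of SNPs had a best partner elsewhere and the median change was 45.2% for SNPs heterozygous only in Pa; shifted windows gave 34.5%. The cause was not tested. Depth is unknown and 60 plants limit the precision of each r2 and share.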

Other observations

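The 126 widely called SNPs of chromosome 6 stood apart from its members in LD. For 123 of them with a minor allele frequency of at least 0.05 in the 60 plants, mean r2 with members up to 1 Mb away was 0.018 over 6686 pairs. With members on other chromosomes it was 0.019. Among themselves, at 1 kb to 1 Mb, the widely called SNPs had a mean r2 of 0.069 over 570 pairs, and members had 0.149 with each other at this distance. Heterozygosity at the 126 SNPs was 27.6% on chromosome 6 and 23.3% at widely called SNPs of other chromosomes, higher in 53 of 60 plants.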
